A study of Mus musculus with 24 samples.

Results

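The 7 genes of the cyclin-dependent kinase (CDK) inhibitors, Trp53, which encodes p53, and Mdm2, which encodes the ligase that removes p53, were described in the inner ear of ageing mice and in cochlear organoids. The 9 genes were taken by symbol (Cdkn1a, Cdkn1b, Cdkn1c, Cdkn2a, Cdkn2b, Cdkn2c, Cdkn2d, Trp53 and Mdm2). All 9 were found among the 18440 genes listed for the inner ear and the 25190 listed for the organoids. The count filter kept 8 of the 9 in the inner ear, where Cdkn2a had too few counts, and all 9 in the organoids.

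Expression was measured by RNA sequencing of whole samples, in 24 libraries of mouse. In the first experiment the soft tissue within the bone of the inner ear came from untreated male C57BL6/J mice of WT genotype at 3, 11 and 20 months of age (n = 4 mice per age). In the second, organoids (cell clusters grown in culture) were raised from cochlear epithelia of newborn mice, also labelled WT. They were expanded with EGF, bFGF, IGF and the Wnt pathway activator CHIR99021, differentiated with CHIR99021 and the Notch pathway inhibitor LY411575, and then kept in low EGF and bFGF, in all 4 groups alike. The groups were an untreated control, TNF (TNF-α, tumour necrosis factor, an inflammatory cytokine), RBM25 knockdown by lentivirus (RBM25 is an RNA-binding protein of splicing), and TNF and RBM25 knockdown (n = 3 libraries per group). The titles of the knockdown samples say KO, and the protocol's term is used here. For the control vector and for the dose and duration of TNF the sources used here give nothing. The labels do not state whether organoid replicates came from separate cultures, and the organoid p-values therefore measure the spread among these libraries alone, possibly technical.

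CDK inhibitors hold the cell cycle in check. Those of the Cip/Kip family, p21 (Cdkn1a), p27 (Cdkn1b) and p57 (Cdkn1c), bind cyclin and kinase complexes, whereas those of the INK4 family, p16 (Cdkn2a), p15 (Cdkn2b), p18 (Cdkn2c) and p19 (Cdkn2d), bind CDK4 and CDK6 and so keep the retinoblastoma protein active. Cdkn2a also encodes ARF from another first exon, and ARF blocks MDM2. p53 is controlled largely as a protein, activates Cdkn1a and Mdm2 after damage, and is removed by MDM2 in a feedback loop. In the cochlea, p27 and p19 are known for keeping supporting cells and hair cells out of the cell cycle, and p16 and p21 are widely used as markers of senescence, a lasting arrest.

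The genes lie at the following places in the mouse genome (GRCm38.p6, RefSeq). Cdkn2a (chr4:89274473-89294619) and Cdkn2b (chr4:89306289-89311032) are neighbours on the minus strand of chromosome 4, and Cdkn2c (chr4:109660876-109666756) lies farther along it. Cdkn1a is at chr17:29090979-29100722, Cdkn1b at chr6:134920401-134925525, Cdkn1c at chr7:143458339-143461059, Cdkn2d at chr9:21288459-21291421, Trp53 at chr11:69580348-69591873 and Mdm2 at chr10:117688875-117710758. The libraries do not mark strand. Exons of Cdkn1a overlap an uncharacterised gene model on the opposite strand and those of Cdkn1c overlap the antisense gene Gm44732, so the reads of both are uncertain. A Cdkn2a count pools p16 and ARF.

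Promoters are shown for the 4 genes whose RNA rose with TNF in both comparisons below, so that their sequences can be set side by side. Their part in the rise was not tested. With TNF 23.3% of all genes tested were called higher, and with TNF in the knockdown 22.8%. Each run covers 150 bases before to 10 bases after a transcript start of the RefSeq annotation (build GRCm38.p6), 5′ to 3′ on the gene's strand. Capitals mark matches to the motifs searched on both strands, which were the NF-kB consensus, the p53 consensus decamer, the palindrome TGACGTCA known from CREB sites, the box GGGCGG known from SP1 sites, the CCAAT box and the E-box CACGTG.
Trp53 (chr11:69580209-69580368, plus strand): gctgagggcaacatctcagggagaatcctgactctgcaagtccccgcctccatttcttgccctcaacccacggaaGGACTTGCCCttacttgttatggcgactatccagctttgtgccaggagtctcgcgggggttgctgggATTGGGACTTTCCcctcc
Cdkn1a, upstream start (chr17:29090829-29090988, plus strand): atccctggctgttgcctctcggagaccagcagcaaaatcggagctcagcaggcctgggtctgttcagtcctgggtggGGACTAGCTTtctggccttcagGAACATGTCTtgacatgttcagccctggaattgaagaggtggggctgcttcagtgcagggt
Cdkn1a, downstream start (chr17:29093619-29093778, plus strand): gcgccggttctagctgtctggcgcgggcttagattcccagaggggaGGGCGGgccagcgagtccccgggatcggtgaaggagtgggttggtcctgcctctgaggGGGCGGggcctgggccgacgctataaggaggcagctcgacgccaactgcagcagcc
Cdkn2b (chr4:89311023-89311182, minus strand): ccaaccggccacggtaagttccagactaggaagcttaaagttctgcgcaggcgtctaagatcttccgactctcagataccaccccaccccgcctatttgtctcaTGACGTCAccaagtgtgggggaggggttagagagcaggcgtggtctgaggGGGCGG
Cdkn2a, downstream start, that of p16 (chr4:89282183-89282342, minus strand): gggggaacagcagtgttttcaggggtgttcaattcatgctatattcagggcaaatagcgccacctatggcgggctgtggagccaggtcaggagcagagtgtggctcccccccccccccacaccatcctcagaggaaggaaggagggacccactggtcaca
Cdkn2a, upstream start, that of ARF (chr4:89294610-89294769, minus strand): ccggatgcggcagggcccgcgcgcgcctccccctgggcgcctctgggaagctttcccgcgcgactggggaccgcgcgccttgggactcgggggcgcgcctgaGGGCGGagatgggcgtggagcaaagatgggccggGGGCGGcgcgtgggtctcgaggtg
The Trp53 window holds an NF-kB match that begins 5 bases before the start and overlaps a CCAAT match on the other strand. It also holds a p53 decamer 75 bases before the start. That transcript start lies downstream of the first base of Trp53 given above, and so do the NF-kB and CCAAT matches. The upstream Cdkn1a window holds 2 exact p53 decamers, 73 and 51 bases before the start and 12 bases apart. Directly after the later decamer lies tgacatgttc, which misses the consensus at its first base only. The search took exact matches, so that near match is neither marked nor counted as a pair. The downstream one holds no p53 decamer, and GGGCGG 104 and 46 bases before its start. The Cdkn2b window holds TGACGTCA 46 bases before the start and GGGCGG just after it, the upstream Cdkn2a window holds GGGCGG 48 and 14 bases before the start, and the downstream Cdkn2a window holds none of the motifs. Of all 32851 promoter windows of this length 2.5% hold the NF-kB match, 4.24% a p53 decamer, 1.49% TGACGTCA, 29.5% GGGCGG and 25.4% CCAAT. A pair of exact p53 decamers no more than 13 bases apart was found in 8 windows (0.0244%), with near matches not counted. Genes that did not rise with TNF hold such matches too. The window of Cdkn2d, which fell with TNF, holds a p53 decamer 102 bases before its start. Windows of Cdkn1b, Cdkn2c, Cdkn2d and Mdm2 hold GGGCGG, and those of Cdkn1b and Mdm2 hold CCAAT. A match is a description of the letters only.

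Library totals were 30599012 to 38451292 counts in the inner ear and 33802411 to 37048422 in the organoids, with a biological coefficient of variation of 19.8% and 8.04%. Replicates differed by more than counting noise in every group. Levels are in CPM, a count divided by its library's scaled total, and changes were tested by edgeR's quasi-likelihood test with adjustment over all genes (adjusted p under 0.05). In the 20-month group replicate 3 stood apart in markers of other tissues. Its summed mucosal markers were 36.1 CPM against 532 to 1029 in the other 3 and its brain and cerebellum markers 1239 against 156 to 738. Replicate 2 of that group stood apart too. Its macrophage markers were 273 CPM against 486 to 506 in the other 3. Its Schwann cell markers were 6697 against 10739 to 11174, and its brain and cerebellum markers 156 against 618 to 1239. Markers of hair cells, supporting cells, neurons, Schwann cells and fibrocytes were found in every inner ear library. In the organoids the 11 supporting cell markers were all listed and summed to 6206 to 6339 CPM in control. Bulk RNA cannot tell fewer cells of a type from less RNA per cell.

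The knockdown and TNF were checked first. Rbm25 was at 145 ± 2.93 CPM in control, 162 ± 11.6 with TNF, 94.6 ± 2.14 with knockdown and 111 ± 10 with both (SD, n = 3). Its log2 fold change was -0.61 with knockdown (SE 0.06, edgeR adjusted p = 1.01e-07) and -0.55 under TNF (edgeR adjusted p = 4.61e-07), to 0.654 times the control level in the first. Tnf had no counts in control or knockdown libraries and 132 counts with TNF, at least 42.2-fold higher against a floor of 3 counts over the group.

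Trp53 rose with TNF in organoids with or without the knockdown. Its 3 control libraries were at 47.1, 44.2 and 46.8 CPM and its TNF libraries at 116, 128 and 121 CPM, a 2.65-fold rise (log2 fold change 1.41, SE 0.06, edgeR adjusted p = 9e-13). The knockdown libraries were at 40.3, 44.6 and 44.8 CPM and those with both at 119, 119 and 131 CPM, a 2.84-fold rise (log2 fold change 1.51, edgeR adjusted p = 3.08e-13). The TNF-treated and untreated libraries did not overlap. The knockdown itself did not move Trp53 past the threshold (log2 fold change -0.09, 95% interval -0.21 to 0.04; edgeR adjusted p = 0.22), nor did it under TNF (log2 fold change 0.01, interval -0.10 to 0.13; edgeR adjusted p = 0.866).

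Mdm2, a target of p53 and its inhibitor, did not follow the Trp53 RNA. Its libraries were at 70.1, 68.7 and 68.6 CPM in control and 68.6, 64.9 and 66.4 CPM with TNF. The lowest control library and the highest TNF library had the same level after rounding, and the groups did not overlap. The log2 fold change with TNF was -0.05 (95% interval -0.15 to 0.05; edgeR adjusted p = 0.39). With the knockdown and both treatments it was at 68.4, 71.9 and 65.6 CPM, and at 74, 72.9 and 70.2 CPM. It passed in 1 of the 4 organoid comparisons, both against TNF, with a small log2 fold change of 0.12 (95% interval 0.02 to 0.22; edgeR adjusted p = 0.0444). That call was lost without replicate 2 or 3 of TNF or without any replicate of both, with no count filter and with the replicate block (edgeR adjusted p up to 0.177; 0.0184 to 0.177 over its alternatives). Mdm4, the partner of MDM2, was lower with knockdown (log2 fold change -0.36, edgeR adjusted p = 2.35e-06).

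Cdkn1a (p21), the arrest gene that p53 activates, rose with each treatment and most with both. It was at 43.3, 44 and 43.4 CPM in control, 90.3, 78.2 and 72.6 with TNF, 64.2, 56.8 and 57.4 with knockdown and 160, 162 and 163 with both. No library overlapped one of another group. TNF alone raised it 1.84-fold (log2 fold change 0.88, SE 0.07, edgeR adjusted p = 4.06e-09), the knockdown alone 1.37-fold (edgeR adjusted p = 1.86e-05), and TNF on top of knockdown 2.72-fold (log2 fold change 1.44, edgeR adjusted p = 3.77e-12). The TNF effect was larger with the knockdown than without it, by 0.56 on the log2 scale (95% interval 0.36 to 0.75, edgeR interaction adjusted p = 0.000771). Under every alternative the difference kept its call, at 0.46 to 0.61 (adjusted p 4.38e-06 to 0.00571).

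Of the other Cip/Kip genes, Cdkn1c (p57), an imprinted inhibitor of late development, rose 3.83-fold with knockdown and 3.12-fold with knockdown under TNF. Its libraries were at 39.3, 36.1 and 38.7 CPM in control and 140, 145 and 151 CPM with knockdown (log2 fold change 1.94, SE 0.14, edgeR adjusted p = 1.45e-06). TNF libraries were at 35.3, 37.8 and 28.9 CPM, and those with both at 107, 127 and 83.6 CPM. TNF lowered it in the knockdown background by 0.46 on the log2 scale (edgeR adjusted p = 0.0207), a call lost without replicate 3 of knockdown (edgeR adjusted p 0.0582; 8.63e-05 to 0.0582 over its alternatives). In the control background the change did not pass (log2 fold change -0.16, edgeR adjusted p = 0.411). Between the TNF effects with and without knockdown the difference did not pass either (edgeR adjusted p = 0.402).

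Cdkn1b (p27), which guards the postmitotic state of the organ of Corti, fell by small amounts with TNF. It was at 185, 184 and 169 CPM in control and 158, 148 and 147 with TNF, a fall of 0.25 on the log2 scale (edgeR adjusted p = 0.00728). It was at 175, 156 and 162 with knockdown and 126, 157 and 136 with both, and TNF again lowered it (log2 fold change -0.23, edgeR adjusted p = 0.0116), though a library of both, at 157 CPM, exceeded the lowest knockdown library. The knockdown did not move it past the threshold (log2 fold change -0.13, 95% interval -0.27 to 0.02; edgeR adjusted p = 0.138), nor did it under TNF (log2 fold change -0.11, edgeR adjusted p = 0.192), except without replicate 2 of both (edgeR adjusted p 0.0087; 0.0087 to 0.568 over its alternatives).

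Cdkn2b (p15) and Cdkn2a, neighbours on chromosome 4, rose with TNF and fell with the knockdown. Cdkn2b was at 11, 12.4 and 10.5 CPM in control, 24.6, 21.1 and 21 with TNF, 5.18, 5.27 and 5.1 with knockdown and 17.9, 15.7 and 18.8 with both. Each group stood clear of the others. TNF raised it 1.97-fold without the knockdown (log2 fold change 0.98, SE 0.10, edgeR adjusted p = 1.15e-07) and 3.37-fold with it (log2 fold change 1.75, edgeR adjusted p = 9.77e-11). This difference of 0.78 in log2 passed the interaction test (95% interval 0.49 to 1.07, edgeR adjusted p = 0.00132). The knockdown lowered it by 1.12 in log2 without TNF (edgeR adjusted p = 4.33e-08) and by 0.35 with it (edgeR adjusted p = 0.00439).

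Cdkn2a was at 6.19, 6.12 and 7.48 CPM in control, 15.2, 10.8 and 11.5 with TNF, 0.754, 1.39 and 1.83 with knockdown and 3.08, 3.35 and 2.53 with both. The log2 fold change was 0.92 with TNF (SE 0.20, edgeR adjusted p = 0.000979), and 1.18 for TNF with the knockdown (edgeR adjusted p = 0.000742). It was -2.33 with knockdown (SE 0.23, edgeR adjusted p = 2.93e-07), 5.01-fold lower, and -2.07 with knockdown under TNF (edgeR adjusted p = 3.92e-07). The level with both treatments stayed under that of the control in every library. The TNF effects with and without knockdown did not differ past the threshold (difference 0.26, 95% interval -0.40 to 0.92; edgeR adjusted p = 0.659). Among the flanking genes, Dmrta1 fell with knockdown (log2 fold change -0.89, edgeR adjusted p = 1.83e-08) and with TNF (log2 fold change -0.29, edgeR adjusted p = 0.00356), and Mtap rose with TNF (log2 fold change 0.24, edgeR adjusted p = 0.00293).

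Cdkn2c (p18) and Cdkn2d (p19) moved the other way from Cdkn2a and Cdkn2b with knockdown. Cdkn2c, the lowest of the inhibitors in control, was at 0.803, 1.18 and 0.765 CPM there, 2.55, 3.93 and 3.13 with knockdown, a 3.48-fold rise (log2 fold change 1.80, SE 0.27, edgeR adjusted p = 1.53e-05). TNF libraries were at 0.524, 0.447 and 0.778 CPM and those with both at 1.87, 2.51 and 2.13 CPM. Its log2 fold change with TNF, -0.65, did not pass (95% interval -1.29 to -0.02; edgeR adjusted p = 0.0845), except without replicate 3 of TNF (edgeR adjusted p 0.0352; 0.0352 to 0.326 over its alternatives). With TNF in the knockdown Cdkn2c did not pass either (log2 fold change -0.56, edgeR adjusted p = 0.0738), except without replicate 1 of knockdown (edgeR adjusted p 0.038) and with limma on log2(FPKM + 1) (adjusted p 0.0185; 0.0185 to 0.295 over its alternatives). Cdkn2d was at 27.7, 27.8 and 26.5 CPM in control, 19.8, 19.9 and 18.9 with TNF, 39, 34.2 and 34.4 with knockdown and 29.5, 33.8 and 26.9 with both. It fell with TNF (log2 fold change -0.48, SE 0.08, edgeR adjusted p = 5.5e-05), rose with knockdown (log2 fold change 0.39, edgeR adjusted p = 0.000302) and fell with TNF in the knockdown (log2 fold change -0.26, edgeR adjusted p = 0.0108). That last call was lost without replicate 1 of knockdown or replicate 3 of both (edgeR adjusted p = 0.0505 in each; 0.00101 to 0.0505 over its alternatives).

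**Figure D1:**
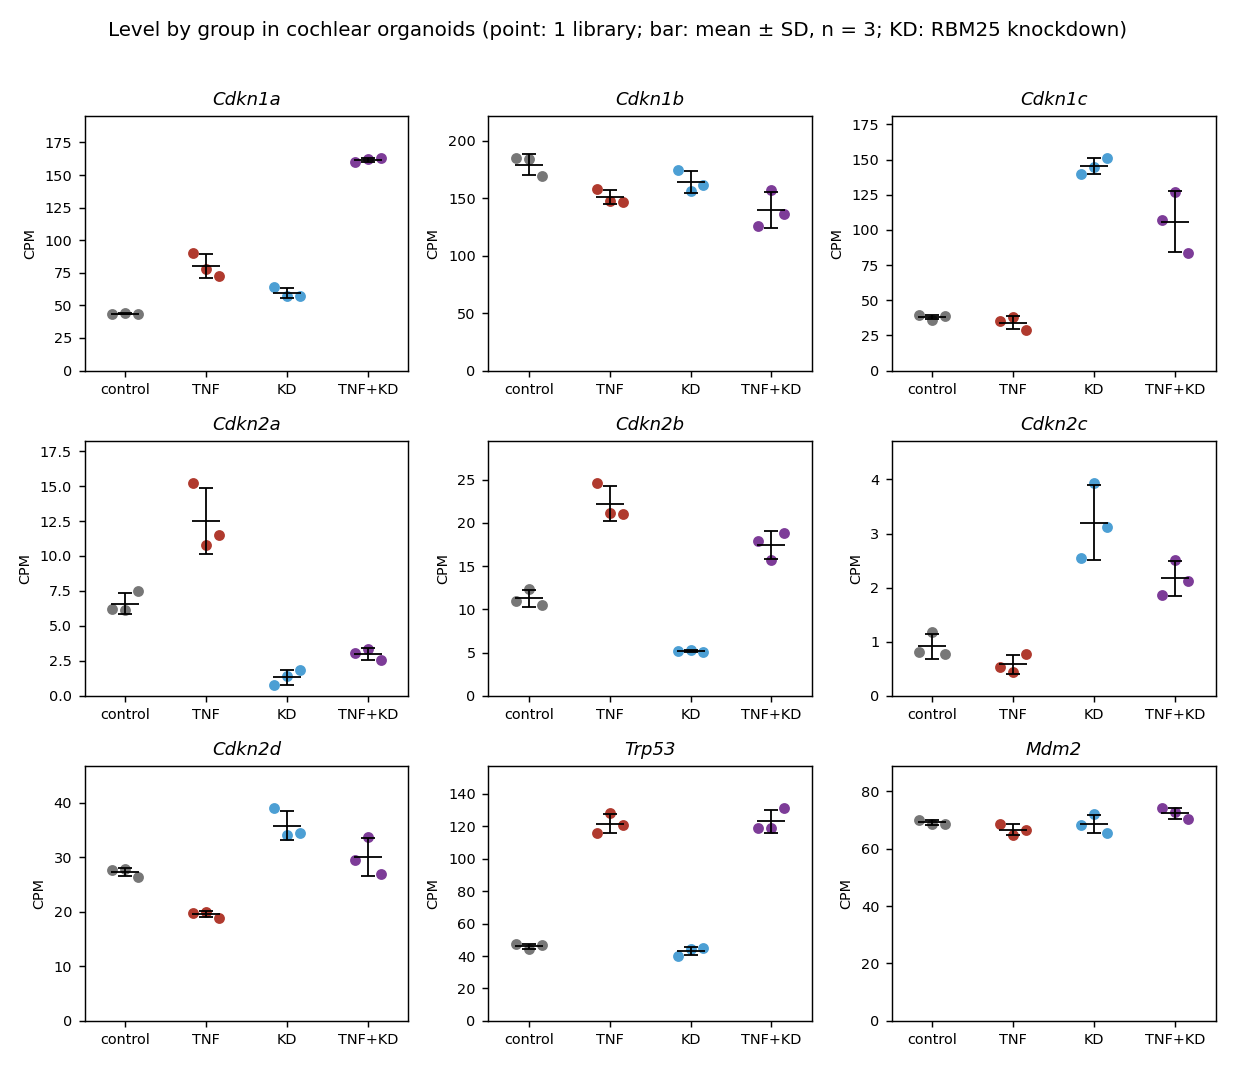
Level (CPM, axis from 0) of the 9 genes in each of the 12 organoid libraries, with mean and SD (n = 3) as bars. Trp53 sits at 116 to 131 CPM in the 6 TNF-treated libraries against 40.3 to 47.1 in the other 6, and Cdkn1a rises to 160 to 163 with both treatments.

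Of the 9 genes, 4 were higher and 2 lower with TNF. Of all 15888 genes 47.5% were called, 23.3% higher and 24.2% lower. With knockdown 4 were higher and 2 lower, where 52.6% of all genes were called, 24.4% higher and 28.2% lower. For TNF in the knockdown 4 were higher and 3 lower, beside 44.8% of all genes, 22.8% higher and 22.0% lower. For both against TNF 5 were higher and 2 lower, beside 52.3% of all genes, 25.4% higher and 26.9% lower. The interaction called 2 genes, both higher, where 12.3% of genes were called, 7.54% higher and 4.81% lower. The libraries of the groups did not overlap for 7, 6, 7 and 7 of the 9 genes in these 4 comparisons, beside 57.5%, 61.9%, 53.2% and 57.7% of all genes. The median log2 fold change of the 9 was -0.053 with TNF beside -0.019 over all genes, and -0.01 beside -0.028 with knockdown. Whether the 9 genes were called more often than other genes was not tested, and nothing particular to them is read from these counts. TNF and knockdown against control share the control libraries, so their values are given side by side only.

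**Figure D2:**
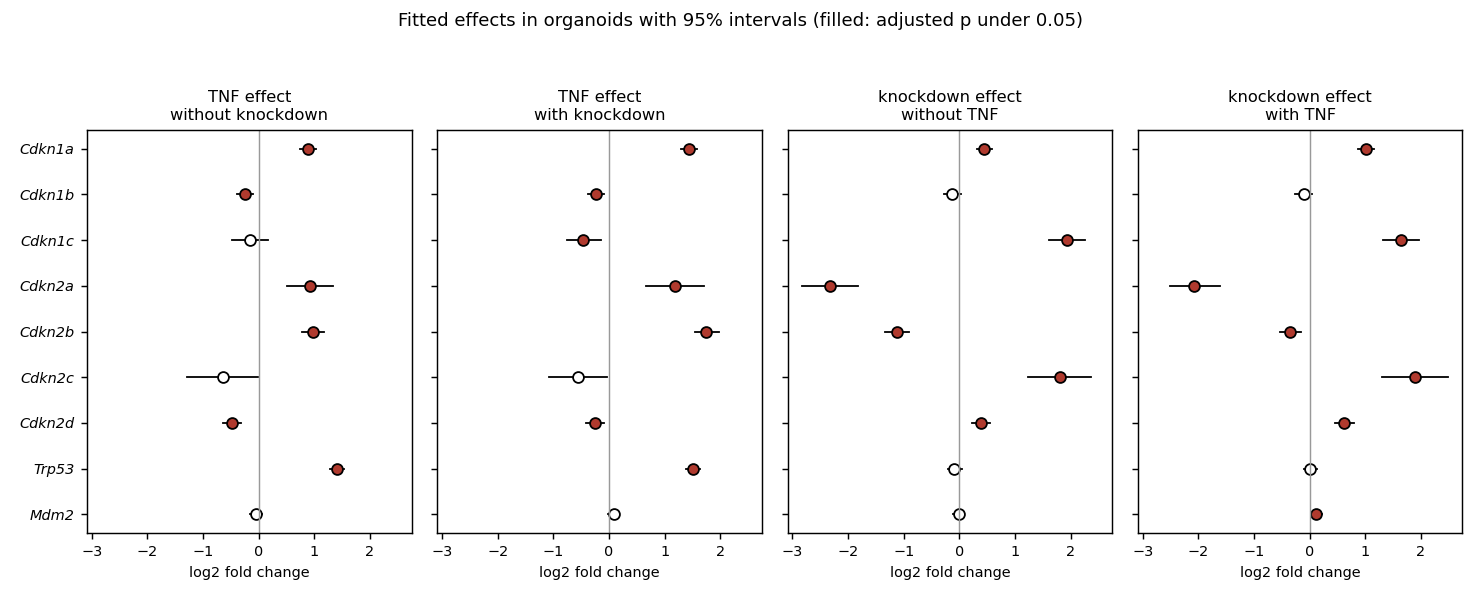
Fitted log2 fold change of each gene with its 95% interval for TNF and knockdown, each without and with the other, on one scale. Filled points passed at adjusted p under 0.05. Cdkn2a lies at -2.33 and -2.07 in the knockdown comparisons, and Trp53 at 1.41 and 1.51 in the TNF comparisons.

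The supporting cell markers, beside these changes, summed to 2898 to 3307 CPM with TNF, 3497 to 3798 with knockdown and 1968 to 2024 with both, against 6206 to 6339 in control. These sums do not stand for each marker. Of 10 tested, 2 were called higher and 2 lower with TNF (median log2 fold change 0.0147), beside 23.3% and 24.2% of all genes. With knockdown 2 were higher and 6 lower (median -0.447), beside 24.4% and 28.2%. Hair cell markers summed to 366 to 382 in control, 312 to 358 with TNF, 575 to 806 with knockdown and 429 to 543 with both. Macrophage markers, of which 5 of 10 were listed, reached 11.6 CPM with both. Bone markers summed to 57, 104 and 3.31 CPM in the 3 libraries with both and to at most 5.3 elsewhere. The part of these in the results above was not tested.

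Of 30 other targets of p53, 13 rose and 5 fell with TNF, beside 23.3% and 24.2% of all genes, and 13 rose and 5 fell with knockdown, beside 24.4% and 28.2% (median log2 fold change 0.169 and 0.135, against -0.019 and -0.028 over all genes). For TNF with the knockdown 15 rose and 3 fell, beside 22.8% and 22.0% of all genes. The polo-like kinase gene Plk2 rose 2.35 in log2 with TNF and the sugar reductase gene Dcxr 2.07, and the apoptosis genes Bbc3 and Bax rose 1.42 and 0.57 (all edgeR adjusted p of 3.95e-07 or lower). With knockdown the ephrin receptor gene Epha2 rose 3.00 and the AKT inhibitor gene Phlda3 1.30 in log2. The interaction test called 6 of the 30, beside 12.3% of all genes, and the difference was largest for the death receptor gene Fas. Its log2 fold change was 1.24 without and 3.24 with the knockdown, a difference of 2.00 (edgeR adjusted p = 0.00437). Btg2 and Plk2 also had a larger TNF effect with knockdown, by 0.77 and 0.45, and Dcxr, Polk and Eda2r a smaller one, by -0.56, -0.47 and -0.52. These 6 of the 30 were named after their values were seen.

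**Figure D3:**
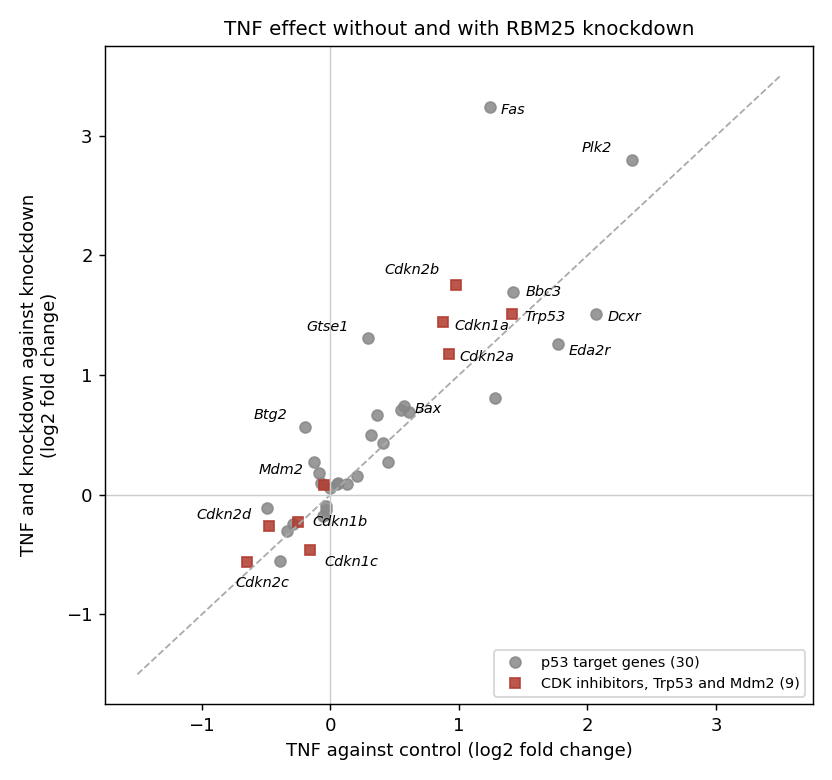
TNF effect without (horizontal) and with (vertical) RBM25 knockdown, as log2 fold changes, for the 9 genes (squares) and 30 p53 targets (circles), from separate libraries. The dashed line marks equal effects. Cdkn1a, Cdkn2b and Fas lie above it, and Dcxr, at 2.07 against 1.51, below it.

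The kinases that the inhibitors bind, and genes of proliferation, were mostly higher with knockdown, where 24.4% of all genes rose and 28.2% fell. With TNF 23.3% of all genes rose and 24.2% fell. Of 13 cyclins and CDKs 8 rose and 2 fell with knockdown, among them Cdk1 (log2 fold change 2.38) and the mitotic cyclin Ccnb1 (2.84), both higher, and Ccnd2, a partner of CDK4, lower (-1.95). With TNF 4 rose and 1 fell, including Cdk6 (1.19) and Cdk4 (0.39), the targets of INK4 proteins. Of 20 proliferation genes 15 rose with knockdown and none fell, led by Mki67 (3.27) and Top2a (3.02), and 9 rose and 1 fell with TNF. For Mki67 and Top2a, and no other gene of the list, the TNF effect was smaller with the knockdown by edgeR's interaction test. With knockdown Mki67 did not pass for TNF (log2 fold change -0.19, edgeR adjusted p = 0.515). The difference was -1.77 (edgeR adjusted p = 0.00445). Of 14 Rb and E2F genes tested 3 rose and 3 fell with knockdown, including Rbl1 (1.27) and Rb1 (-0.37). The size of the largest knockdown changes is uncertain, though their calls held under every alternative. Over the alternatives, log2(FPKM + 1) among them, Mki67 ran from 0.48 to 3.68, Top2a from 0.89 to 3.27 and Ccnb1 from 0.44 to 3.07.

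Genes that regulate the inhibitors divided evenly, with 9 higher and 9 lower of 25 with TNF and 7 of each with knockdown. Beside these and the next lists, 23.3% of all genes were higher and 24.2% lower with TNF. With knockdown the shares were 24.4% and 28.2%. Myc rose with TNF (log2 fold change 2.87, edgeR adjusted p = 1.31e-12), as did Smad3, which acts downstream of TGF-beta (0.58), while the Polycomb gene Pcgf2 fell (-0.67). With knockdown the Polycomb gene Cbx7 fell (-1.23, edgeR adjusted p = 2.88e-11), as did Hes1, a Notch target (-2.38), and Fbxw7 (-0.60). Of 18 senescence and secretory genes tested, 9 rose and 3 fell with TNF, with Icam1 (5.95) and Ccl7 (3.95) higher and Igfbp5 lower (-1.22). With knockdown 7 rose and 2 fell. Glb1, the lysosomal galactosidase used as a senescence stain, rose (1.02) with knockdown, as did Lmnb1 (0.76), and Hmgb1 fell (-0.34). With TNF Glb1 and Lmnb1 were called lower. The counts take no account of the direction a gene takes in senescence. Of 18 genes that act on p53, 7 rose and 2 fell with TNF. The ribosomal genes Rpl5 (0.49) and Rpl11 (0.47), whose products bind MDM2, were among them, as was the p53 relative Trp63 (5.77). The size of the Trp63 change is uncertain. It ran from 0.23 to 8.49 over the alternatives, log2(FPKM + 1) among them, and the call held in each.

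Per length, in the authors' FPKM, Cdkn1b led the control organoids at 72.3 ± 4.18 (SD, n = 3), followed by Cdkn1a at 20.8 ± 0.284, Trp53 at 19.5 ± 0.623, Cdkn1c at 18.5 ± 0.798 and Cdkn2d at 18 ± 0.602. Trp53, Cdkn1c and Cdkn2d, neighbours in that order, overlapped within 1 SD. Mdm2 was at 9.04, Cdkn2b at 7.87, Cdkn2a at 5.63 and Cdkn2c at 0.395. With both treatments Cdkn1a led, at 81.1 ± 0.329, over Cdkn1b at 59.3 ± 6.74, which overlapped Trp53 at 54.8 ± 2.93 and Cdkn1c at 54.3 ± 11.3. With knockdown Cdkn1c was at 74.2 ± 1.6 and Cdkn1b at 69.5 ± 5.17, which overlapped.

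In the inner ear, fewer of the 9 genes passed the test than in the 4 organoid comparisons between groups. The share of all genes called was smaller too, at 22.7%, 1.56% and 15.8% against 44.8% to 52.6%. Nothing particular to the 9 genes is read from this. By their means the order per length was the same at the 3 ages, with Cdkn1b first (115 ± 8.5 FPKM at 3 months, SD, n = 4), then Cdkn1a (67.1 ± 6.04), Cdkn1c (44.2 ± 8.45), Cdkn2d (21.8 ± 2.35), Trp53 (14 ± 0.428), Mdm2 (8.21 ± 0.841), Cdkn2c (1.02 ± 0.141), Cdkn2b (0.627 ± 0.202) and Cdkn2a at 0. At 20 months Cdkn1a (68.4 ± 10) and Cdkn1c (56.2 ± 15.1) overlapped within 1 SD, as did Cdkn2d (19.9 ± 4.26) with Trp53 (16.6 ± 2.26) and Cdkn2c (1.41 ± 0.305) with Cdkn2b (1.12 ± 0.405).

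Trp53 and Mdm2 were higher at 20 than at 11 months. The 4 libraries of Trp53 were at 31.5, 33.3, 32 and 32.4 CPM at 3 months, 30.5, 28.4, 28.1 and 30.3 at 11 months and 39.4, 34.5, 32.5 and 42.9 at 20 months. The 11-month group lay under the other two, without overlap. From 11 to 20 months the log2 fold change was 0.35 (SE 0.08, edgeR adjusted p = 0.0174). From 3 to 20 months it was 0.21 and did not pass (95% interval 0.03 to 0.39, edgeR adjusted p = 0.0871), except without replicate 3 of 20 months (0.27, edgeR adjusted p = 0.026; 0.026 to 0.252 over its alternatives). The rise after 11 months lost its call when the 11-month library 2 or 3, or the 20-month library 1 or 4, was left out (edgeR adjusted p at most 0.065; 0.00288 to 0.065 over its alternatives).

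Mdm2 was at 65.7, 67.6, 53.8 and 58.8 CPM at 3 months, 51.7, 57.1, 57.2 and 56.6 at 11 and 62.2, 70.3, 68.9 and 76.1 at 20 months. The oldest group lay above the middle one in every library and overlapped the youngest. Its log2 fold change from 11 to 20 months was 0.32 (SE 0.08, edgeR adjusted p = 0.0225), lost when any 11-month library or the 20-month library 4 was left out (edgeR adjusted p at most 0.0654; 0.00567 to 0.0654 over its alternatives). From 3 to 20 months it did not pass (log2 fold change 0.17, edgeR adjusted p = 0.141).

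Cdkn1a dipped at 11 months. It was at 126, 144, 152 and 131 CPM at 3 months, 98.7, 94.9, 101 and 107 at 11 months and 151, 154, 112 and 130 at 20 months. The 11-month libraries lay under all others. The log2 fold change was -0.46 from 3 to 11 months (SE 0.10, edgeR adjusted p = 0.0353) and 0.45 from 11 to 20 months (SE 0.10, edgeR adjusted p = 0.0123), and -0.01 from 3 to 20 months (95% interval -0.22 to 0.19, edgeR adjusted p = 0.936). The fall from 3 months was lost without any of the 8 libraries but replicate 1 of 3 months, with limma on log2(FPKM + 1) and with the replicate block (adjusted p up to 0.107; 0.000716 to 0.107 over its alternatives by edgeR, DESeq2 or limma). The later rise kept its call under every alternative.

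Cdkn1b fell with age. It was at 301, 263, 262 and 295 CPM at 3 months, 240, 255, 271 and 270 at 11 months and 232, 231, 212 and 233 at 20 months. The oldest mice lay under all others. From 3 to 20 months the log2 fold change was -0.30 (95% interval -0.45 to -0.16, SE 0.07, edgeR adjusted p = 0.00715), 1.23-fold lower, and the call held under every alternative (adjusted p 4.78e-05 to 0.0215 by edgeR, DESeq2 or limma). From 11 to 20 months it did not pass (log2 fold change -0.19, edgeR adjusted p = 0.0696), except by DESeq2 (adjusted p 0.0171; 0.0171 to 0.135 over its alternatives). Cdkn1c, at 64.3 to 99.3 CPM at 3 months, 60.4 to 85.3 at 11 and 75 to 139 at 20, did not pass in any age comparison (edgeR adjusted p 0.0739 or higher). From 11 to 20 months it was higher without replicate 3 of 20 months (log2 fold change 0.71, edgeR adjusted p = 0.016) and by DESeq2 (adjusted p = 0.0185; 0.016 to 0.194 over its alternatives).

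No INK4 gene passed in the 3 age comparisons, and Cdkn2a was too low to be tested there. Cdkn2a had 0 counts in all 4 libraries at 3 months, 1, 1, 0 and 0 at 11 months and 9, 0, 5 and 9 at 20 months. That is 23 counts against 0, at least 7.94-fold higher against a floor of 3 counts over the group, a bound that covers counting error only. Replicate 2 of 20 months had none, and its macrophage markers were also the lowest of that age. The part of this was not tested. An exact permutation test of its CPM between 20 and 3 months gave two-sided p = 0.143, where 4 against 4 mice can give 0.0286 at the smallest. When no count filter was used, edgeR gave an adjusted p of 0.0333. Cdkn2b was at 0.472, 0.931, 1.09 and 1.03 CPM at 3 months and 1.69, 2, 0.733 and 1.68 at 20 months, with a log2 fold change of 0.79 (95% interval -0.05 to 1.63, edgeR adjusted p = 0.159). Replicate 3 of 20 months was the low one. Cdkn2c was at 1.89 to 2.61 CPM at 3 months and 2.52 to 3.71 at 20 months (log2 fold change 0.43, edgeR adjusted p = 0.182). Cdkn2d was at 29.8, 29.4, 36.2 and 34.5 CPM at 3 months, 38, 40.1, 35.9 and 36.9 at 11 and 25.4, 26.3, 38.7 and 25.3 at 20 months. Without replicate 3 of 20 months it was lower at 20 than at 3 months (log2 fold change -0.34, edgeR adjusted p = 0.013) and than at 11 months (log2 fold change -0.56, edgeR adjusted p = 0.0011). With all libraries neither passed (edgeR adjusted p = 0.367 and 0.0573). Over the alternatives the adjusted p ran from 0.013 to 0.623 and from 0.0011 to 0.155.

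**Figure D4:**
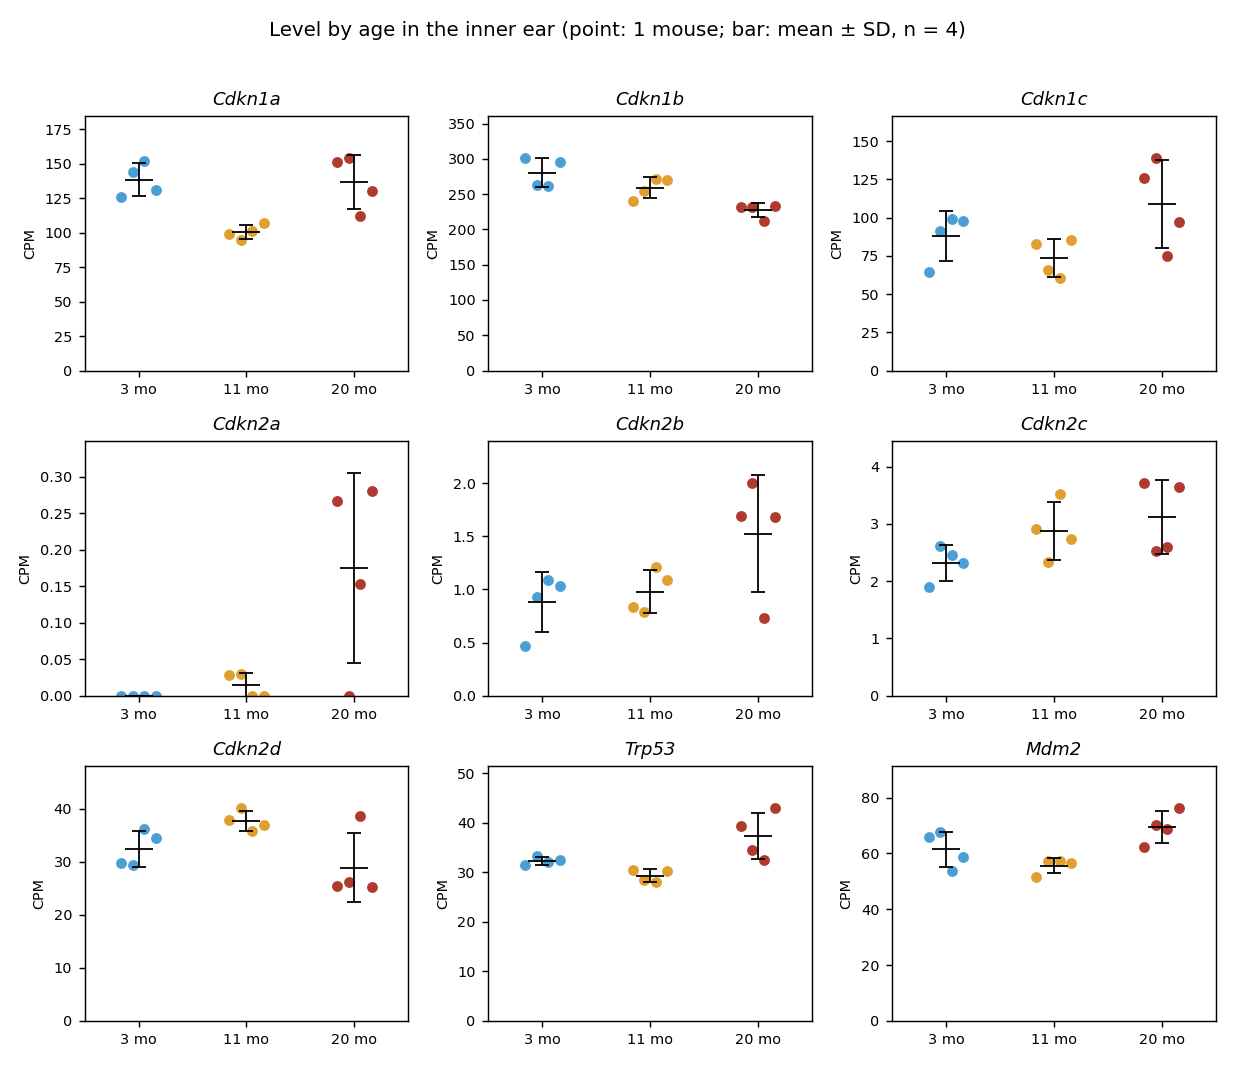
Level (CPM, axis from 0) of the 9 genes in each of the 12 inner ear libraries at 3, 11 and 20 months, with mean and SD (n = 4) as bars. Cdkn1b lies at 212 to 233 CPM at 20 months against 262 to 301 at 3 months, and Cdkn2a is at 0 in every 3-month library.

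Between 3 and 20 months 1 of the 8 genes tested was called, Cdkn1b, lower, where 22.7% of all 15525 genes were called, 12.0% higher and 10.7% lower. Between 3 and 11 months 1 was called, Cdkn1a, lower, beside 1.56% of all genes, 0.979% higher and 0.580% lower. Between 11 and 20 months 3 were called, all higher, beside 15.8% of all genes, 7.87% higher and 7.90% lower. The libraries of the 2 ages did not overlap for 1, 2 and 4 of the 8 genes, beside 22.0%, 13.0% and 20.5% of all genes. The median log2 fold change of the 8 was 0.191 from 3 to 20 months beside 0.011 over all genes, -0.127 beside -0.0092 from 3 to 11 months, and 0.333 beside 0.033 from 11 to 20 months. The comparisons with 11 months share those libraries.

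**Figure D5:**
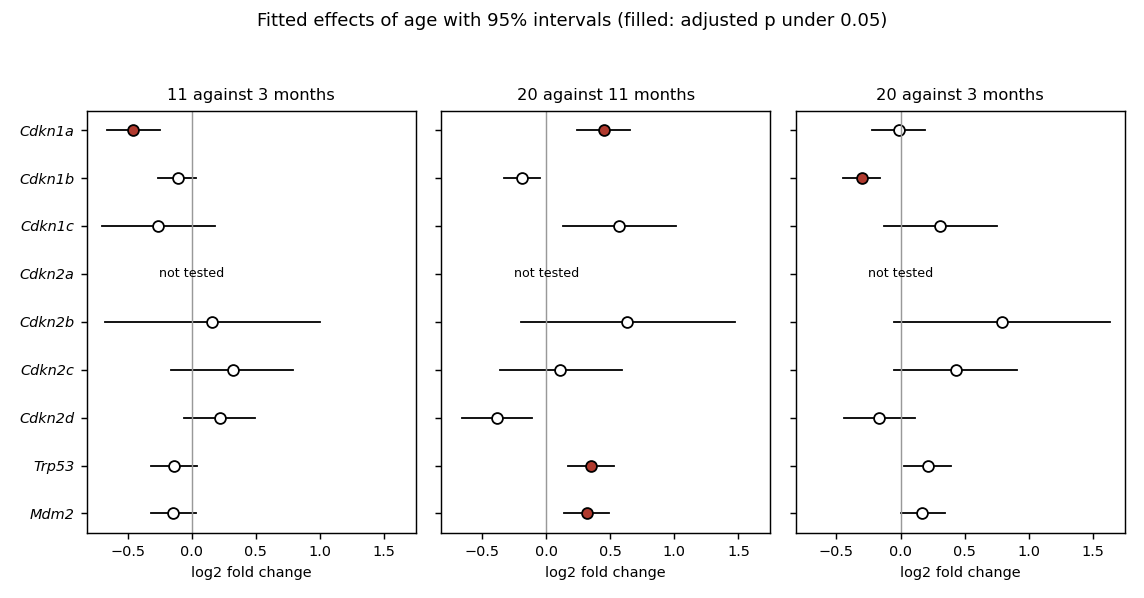
Fitted log2 fold change of the genes tested between ages, with 95% intervals, and Cdkn2a marked as not tested. Filled points passed at adjusted p under 0.05. Cdkn1a lies at -0.46 from 3 to 11 months and at 0.45 from 11 to 20 months.

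Marker lists moved with age beside these results. Summed macrophage markers were 146 to 189 CPM at 3 months, 293 to 335 at 11 and 273 to 506 at 20. Neuron markers were 9358 to 12108, 10946 to 12430 and 6279 to 9537. Fibrocyte markers were 7891 to 10277, 5312 to 7705 and 5185 to 7670, and brain and cerebellum markers 138 to 391, 776 to 948 and 156 to 1239. By their medians 10 of 15 marker lists were lowest at 11 months, the age at which Cdkn1a, Trp53 and Mdm2 were lowest. Several of the 10 overlapped between ages, such as Schwann cell markers, with medians of 11568, 10466 and 10928 CPM. The neuron and the brain and cerebellum lists had their highest medians at 11 months, at 11354 and 808 CPM. Skeletal muscle markers were 16.1 to 121, 3.53 to 4.59 and 7.45 to 15.7 CPM, with 5 of 8 lower from 3 to 11 months and 3 higher from 11 to 20. The median was 232, 44.2 and 761 CPM for mucosal, 2202, 1214 and 1905 for stria vascularis and 1627, 1446 and 1943 for supporting cell markers. The part of these lists in the changes of Cdkn1a, Cdkn1b, Trp53 and Mdm2 was not tested.

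Beside the 12.0% of all genes that rose and the 10.7% that fell between 3 and 20 months, 4 of 30 p53 targets rose and 2 fell (median log2 fold change 0.0382, and 0.011 over all genes), with Pmaip1 (2.08), Eda2r (1.59) and Tnfrsf10b (1.08), genes of cell death receptors and effectors, among the higher. Sesn1 (-0.21) and Tigar (-0.32) were the lower ones. Pmaip1 and Eda2r had low levels, with means of 0.507 and 0.695 CPM at 3 months and 2.15 and 2.11 CPM at 20 months. Of 13 cyclins and CDKs 3 rose, among them Ccnd1 (1.33) and Cdk6 (0.93), and Cdk1 fell (-1.11). Of 22 senescence and secretory genes 11 rose and 1 fell (median 1.23), including Icam1 (2.11), Ccl7 (4.75) and Tnfrsf1b (1.05), beside the rise of macrophage markers. Ccl7 was low, at 0 to 0.181 CPM at 3 months and 0.258 to 3.73 CPM at 20 months. Of 25 genes that regulate the inhibitors 4 rose and 1 fell, with Smad3 (1.00), Klf4 (0.74) and Ets2 (0.50) higher. Of 19 proliferation genes tested only Mcm6 passed (0.37), of 15 Rb and E2F genes E2f6 (-0.27), and of 18 genes that act on p53 Nfkb1 (0.39) and Ep300 (0.35). At 11 months none of the 30 targets passed against 3 months by edgeR (7 at an unadjusted p under 0.05).

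The genes most like Cdkn1a over the 12 organoid libraries, by Pearson's r of log2(CPM + 1), were Entpd2 (0.990), the p53 target Bax (0.985) and H2-DMb1 (0.984). For Cdkn2a they were Hmox2 (0.989), Gcat (0.989) and Dync1i2 (0.987). Over the 12 inner ear libraries the genes most like Cdkn1a were Ctdspl (0.959), Tfeb (0.940) and Cd9 (0.939). These are descriptions of few groups that share libraries, chosen as the highest among all genes tested.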

How the data were processed

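RNA was sequenced from TruSeq v2 libraries, which do not mark strand, per the labels' protocols. The authors deposited whole-number gene counts and FPKM values for 24 libraries. Trimmomatic, HISAT2, HTSeq, DESeq2 and the build mm10 appear in the submitters' processing notes, and for versions and settings the sources used here give nothing. FPKM, scaled by the authors to length and depth, was used for levels between genes and as an alternative. Deposited counts of each experiment were fitted as a whole with edgeR 4.0.16 (R 4.3.3; TMM, filterByExpr, robust quasi-likelihood F-test, two-sided, 1 coefficient per group), with Benjamini-Hochberg adjustment over all genes kept (15525 and 15888) at 0.05. Intervals are 95%. Fold changes use edgeR's default prior count. The pipeline was also run on simulated counts with the same spread for every gene of an experiment. These do not copy the differences between libraries seen here, and nothing is read from that run. Coordinates and promoters are from RefSeq GRCm38.p6, with promoters found for 8 of the 9 genes. The entry of Cdkn1c is named only.

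The 9 genes, the lists and the tests were chosen with earlier results of these data known. Genes named outside the 9 were Rbm25, Tnf, up to 3 genes per list with the smallest p among those called for 20 against 3 months, TNF and knockdown, and the 3 most like Cdkn1a and Cdkn2a. Other names, such as Bax, Bbc3, Fas, Sesn1, Tigar and the Btg2 and Eda2r interactions, were chosen after their values were seen. Alternatives were DESeq2 1.42.0 size factors and Wald test, no count filter, only the libraries compared, limma 3.58.1 on log2(FPKM + 1) or log2(FPKM + 0.1), the replicate block and leaving out each library. Figures used matplotlib 3.10.9.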

Additional observations from a re-analysis of the deposited data

Results flagged for a closer look

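Replicate 3 of 20 months stood apart for 2 of the genes. Its Cdkn1b was at 212 CPM against 231 to 233 CPM in the other 3 mice, and its Cdkn2d at 38.7 CPM against 25.3 to 26.3 CPM. The same library stood apart in markers of other tissues. Replicate 1 of 11 months was lowest for Mdm2, at 51.7 CPM against 56.6 to 57.2 CPM. The gap rule was set for 27 groups of 4 libraries, and chance flags about 1 in 20. Cdkn2a at 3 months, with no counts, could not be flagged.

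The TNF effect differed between organoids with and without RBM25 knockdown for Cdkn1a, by 0.56 on the log2 scale, and for Cdkn2b, by 0.78, by edgeR's interaction test. Both effects were larger with the knockdown, and both differences kept their call under all 19 alternatives.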

How the results depend on the processing

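No call of the 9 genes reversed. Over 999 combinations of gene, comparison and alternative, 960 kept their side of the threshold, 28 lost a call and 11 gained one. Cdkn2a in the inner ear, not tested in the main fit, is outside this tally. So is the call it had from 3 to 20 months with no count filter. Of the 9 genes, those called from 3 to 20 months were 1 in the main analysis, 2 with no count filter and 1 to 3 with a library left out. From 3 to 11 months the 1 called became 0 with limma on log2(FPKM + 1) and with the replicate block, and 0 to 1 with a library left out. From 11 to 20 months the 3 called became 6 with DESeq2 and 1 to 5 with a library left out. Over all genes, 242 were called from 3 to 11 months, against 1031 with DESeq2, 797 with only the libraries compared, 112 with limma on log2(FPKM + 1), 130 with the replicate block, and 38 to 137 with a library left out. With a library left out the counts were 2211 to 3951 from 3 to 20 months, 787 to 3632 from 11 to 20 months and 1221 to 2337 for the interaction. The cause was not tested. The main fit did not pair samples by replicate number, and the labels do not state whether they were paired. Same-numbered libraries of control and knockdown deviated together (r 0.292, 0.0339 and 0.26, each best with its own number), a hint from the data only. In no other pair of groups did every library correlate best with its own number. The block otherwise moved only Mdm2 for both against TNF (edgeR adjusted p = 0.0512). Counts under 10 limited Cdkn2a in the inner ear.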
